A study of Mus musculus with 469 samples.

Results

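The 10 genes Kirrel, Kirrel2, Kirrel3, Ncam1, Ncam2, Nfasc, Dscam, Cntn1, L1cam and Chl1 encode cell adhesion molecules of the immunoglobulin superfamily that sit on axons. They were taken by name from the 23281 genes of the deposited table, and all 10 were listed there. Each library of the series is labelled as 1 cell of the olfactory epithelium of mice aged 8 weeks, captured with the Fluidigm C1 system. OMP-eGFP cells of the B6 OMP-eGFP strain were taken after transplantation and are labelled as engrafted (89 libraries), or 14 days after removal of the olfactory bulb (50 libraries). Neurog1-eGFP cells of the FVB Neurog1-eGFP strain came from uninjured epithelium (61 libraries) and from 5 days (51 libraries) and 14 days (26 libraries) after bulbectomy. The unsorted reference was uninjured epithelium of B6;129SF1/J (F1) wildtype mice, in 2 runs of 96 libraries each. Libraries with at least 1000 genes and a column sum of at least 50000 were kept. The authors scaled the columns and the lowest sum was 483147, so only the limit on genes left libraries out. This filter left 29 engrafted OMP cells, 42 OMP cells at 14 days, 46 uninjured, 48 5-day and 25 14-day Neurog1 cells, and 68 and 70 reference cells of run 1 and run 2. No animal is named, nor the host of the engrafted cells, so each group was treated as 1 sample, no test was run, and the intervals below cover counting error over cells only. Strain differs with the sort, and the 2 cannot be told apart.

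Olfactory sensory neurons arise throughout life from precursors that pass through a Neurog1-expressing stage, extend an axon to the olfactory bulb and then mature. Axons that carry the same odorant receptor gather into shared glomeruli. Adhesion molecules take part in that sorting: Kirrel2 and Kirrel3 bind their own kind across membranes and are known to follow neuronal activity in opposite ways, Ncam1 is a general neuronal adhesion molecule that can carry polysialic acid, and Ncam2 (OCAM) is a classical zonal marker of olfactory axons. Nfasc, L1cam and Chl1 belong to the L1 family, which binds ankyrins inside the cell, Cntn1 is a lipid-anchored contactin, and Dscam mediates self-recognition of neurites. After bulbectomy the mature neurons lose their target and die, and precursors replace them.

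Recovered fragments per kept cell ranged from 13369 to 2186034, with medians of 501827 in engrafted OMP cells, 1347935 in OMP cells at 14 days, 848317, 1136942 and 1099226 in the uninjured, 5-day and 14-day Neurog1 sorts, and 504103 in the reference. Levels are CPM, the authors' scaled signal as parts per 1000000 of its sum in the cell, and a gene was called found in a cell at 10 CPM or more. Neurog1 was found in 0 of 29 and 0 of 42 cells of the engrafted and 14-day OMP sorts, in 23 of 46, 18 of 48 and 12 of 25 cells of the Neurog1 sorts and in 6 reference cells (4.35%). Omp was found in 22 of 29 and 41 of 42 cells of the OMP sorts, and also in 27 of 46, 17 of 48 and 8 of 25 Neurog1 cells. Sustentacular markers (supporting cells) summed to 1000 CPM or more in 3 engrafted, 3 14-day OMP, 4 5-day and 1 14-day Neurog1 libraries and in 73.2% of the reference libraries. Of the reference cells, 38 fell in the 2 clusters named from mature neuron markers (mature-like) and 75 in 4 clusters led by sustentacular markers, of which 2 are unnamed. The other 25 include an unnamed cluster of 9 cells with 8 mature neuron markers. The clusters were built without the 10 genes. Omp, which marks neurons and not sustentacular cells, was nevertheless found in 65 of the 75 cells of the sustentacular-marker clusters, at a mean of 1547 CPM, beside 9018 CPM in the mature-like cells. The 9 cells of that unnamed cluster were the 9 libraries with more than 10000 genes, all of run 1, and Kirrel, Kirrel2, Kirrel3, Ncam1, Ncam2, Nfasc, Dscam and L1cam were found in all 9.

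Compared per length, in mean FPKM, Ncam1 was the highest member in every group. Its mean lay above that of 99.5% of the 23281 genes in engrafted OMP cells, 99.7% in OMP cells at 14 days and in each of the Neurog1 sorts, and 98.8% in the reference. Its mean level was 435.3 FPKM in engrafted OMP cells, 562.9 FPKM in OMP cells at 14 days, 537 FPKM in uninjured, 552.6 FPKM in 5-day and 510 FPKM in 14-day Neurog1 cells, and 242.996 FPKM in the reference. Ncam2 was the second member in the Neurog1 sorts and the engrafted sort, at 57.2 FPKM in engrafted cells, 56.3 FPKM in OMP cells at 14 days, 78.4, 46.2 and 76.7 FPKM in the uninjured, 5-day and 14-day Neurog1 sorts, and 9.71 FPKM in the reference. Kirrel2 was the second member in the other groups, with 68.8 FPKM in OMP cells at 14 days and 125.96 FPKM in the reference. Chl1 was the lowest member, together with Kirrel in the 14-day Neurog1 sort where both are listed at 0, and did not exceed 0.327 FPKM in any group. A cell held a median of 3 of the 10 members in the engrafted sort, 4 in OMP cells at 14 days, 2 in each of the Neurog1 sorts and 2 in the reference.

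Ncam1 was the only member found in every cell of 4 of the 6 groups. In engrafted OMP cells Ncam1 had a lowest value of 0, a median of 2726 and a highest value of 8253 CPM. In OMP cells at 14 days these were 246.5, 3271 and 8960 CPM. The uninjured Neurog1 sort ran from 149.8 CPM over a median of 3041 to 10911 CPM, the 5-day sort from 56.5 over 3137 to 9817 CPM, and the 14-day sort from 111.1 over 2851 to 8218 CPM. In the reference the lowest, median and highest values were 0, 1179 and 6444 CPM. The 5 sorted groups overlapped almost throughout their ranges, and their medians lay within 1 SD of each other over cells (SD of 1969, 1731, 2072, 2298 and 2066 CPM in the order given).

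**Figure D1:**
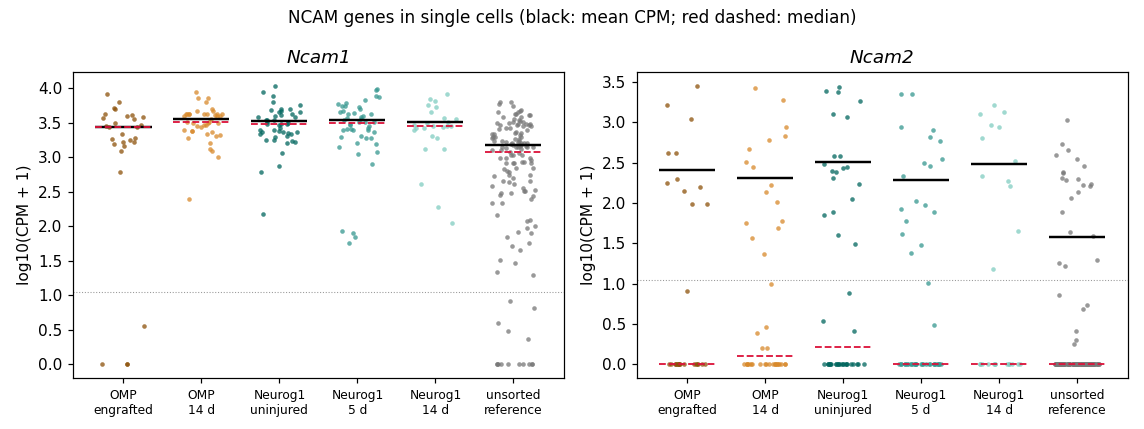
Each point is 1 cell, the y axis is log10(CPM + 1), the dotted line marks 10 CPM, black lines the mean CPM and red dashed lines the median. The OMP sorts stand left, the Neurog1 sorts follow in order of time and the unsorted reference is on the right. Most sorted cells lie in 1 band near the median of Ncam1, with 4 engrafted cells below 10 CPM, while Ncam2 splits each group into cells at or near 0 and cells that reach over 1000 CPM.

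In the reference, Ncam1 depended on the cell class. It averaged 2515 CPM in the 38 mature-like cells, where it was found in 38 of 38, against 767 CPM in the 75 cells of the sustentacular-marker clusters, where it was found in 60. The level in the sustentacular-marker clusters was 30.5% of that in mature-like cells, beside 17.2% for Omp and 10.1% for the channel subunit gene Cnga2. The part of free RNA or mixed captures in these levels was not tested. The 2 runs gave means of 1723 and 1337 CPM. The log2 ratio of the uninjured Neurog1 sort over the reference was 1.15, and that of OMP cells at 14 days over the mature-like reference cells was 0.50.

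The 4 engrafted cells without Ncam1 did not look like the other 25 engrafted cells. All 4 lay in 1 unnamed cluster with sustentacular markers, and 3 of them held Rgs5, a pericyte marker in textbooks, at 210259, 162238 and 232314 CPM. Among the 25 engrafted cells with Ncam1, the highest Rgs5 value was 1.99 CPM. Omp was at 2.8, 0, 0 and 134.3 CPM in the 4 cells, against a median of 2900 CPM in the 25. Without these 4 cells the engrafted mean of Ncam1 was 3154 CPM, against 3547 CPM in OMP cells at 14 days.

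Within the Neurog1 sorts, cells were divided by Gap43, a growth-associated gene of immature neurons, and Omp. Ncam1 averaged 2305 CPM in the 31 cells with neither gene, 3931 CPM in the 36 cells with Gap43 alone, 3599 CPM in the 41 cells with both and 3951 CPM in the 11 cells with Omp alone. It was found in each of these cells. The means of the cells with neither gene and with both were 2915 and 3001 CPM in the uninjured sort, 2001 and 4053 CPM in the 5-day sort and 1520 and 4225 CPM in the 14-day sort. In the 61 cells that held Neurog1 or Neurod1, transcription factor genes of precursors, the mean was 2505 CPM. Across the 190 sorted cells the genes whose CPM ranked most like Ncam1 were Gap43 (Spearman's rho 0.41), Ndrg4 (0.39), Ppfia2 (0.38), Tuba1a (0.38) and Rab6b (0.38), among 3883 genes compared. Each point of these correlations is 1 library, so depth is shared by both genes.

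Ncam2 was present in about the same share of cells in the 5 sorted groups, and in fewer reference cells. It was found in 11 of 29 engrafted cells (37.9%, exact 95% interval 20.7 to 57.7%). The OMP sort at 14 days held it in 16 of 42 cells (38.1%, 23.6 to 54.4%). The uninjured, 5-day and 14-day Neurog1 sorts held it in 20 of 46 (43.5%, 28.9 to 58.9%), 18 of 48 (37.5%, 24 to 52.6%) and 12 of 25 cells (48%, 27.8 to 68.7%). In the reference it was found in 22 cells (15.9%, 10.3 to 23.1%), and 9 of these were the libraries with more than 10000 genes. Its highest values were 2854 CPM in the engrafted sort, 2675 CPM in OMP cells at 14 days, 2726, 2270 and 1668 CPM in the 3 Neurog1 sorts and 1068 CPM in the reference, and every group contained cells at 0. The sorted groups overlapped in full, and the intervals of the Neurog1 sorts and of the OMP cells at 14 days did not overlap that of the reference. The log2 ratio of the uninjured Neurog1 sort over the reference was 3.06, and it was 2.24 to 3.50 over the alternatives.

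The low share in the reference was not confined to the sustentacular-marker clusters. In the 38 mature-like reference cells Ncam2 was found in 4 cells (10.5%, 2.94 to 24.8%) at a mean of 12 CPM, against 16 of 42 OMP cells at 14 days at a mean of 201.1 CPM, a log2 ratio of 3.96. The intervals of the 2 shares overlapped. Over the alternatives the ratio was 2.13, with neurons chosen by 4 markers, to 5.18, with run 1 alone. Median depth differed between these 2 sets, at 1347935 fragments in OMP cells at 14 days and 322357 in mature-like cells. With every cell thinned to 50000 fragments, Ncam2 was found in 35.7% of the OMP cells and 10.5% of the mature-like cells. Of the mature-like cells 27 came from run 1, and the ratio was 2.69 with run 2 alone. They came from another strain, which cannot be told apart from the difference.

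In the Neurog1 sorts Ncam2 was found in 31 of 52 cells with Omp (59.6%, 45.1 to 73%) and in 19 of 67 cells without Omp (28.4%, 18 to 40.7%). By sort these were 15 of 27 with and 5 of 19 without Omp in uninjured, 9 of 17 and 9 of 31 in 5-day and 7 of 8 and 5 of 17 in 14-day Neurog1 cells. By both stage genes, it was found in 6 of 31 cells with neither, 13 of 36 with Gap43 alone, 25 of 41 with both and 6 of 11 with Omp alone. The genes most like Ncam2 in rank across the 190 sorted cells were Mlxip (rho 0.34), Ift88 (0.33), Trim66 (0.31), Celsr3 (0.30) and Strn4 (0.30).

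Ncam2 and Nqo1 are known to mark opposite zones of the epithelium, Nqo1 the dorsal one, and Acsm4 (O-MACS) is a further dorsal marker. In the 190 sorted cells Nqo1 was found in 11 of 77 cells with Ncam2 (14.3%, 7.35 to 24.1%) and in 35 of the cells without it (31%, 22.6 to 40.4%). The widest gap was in the 5-day Neurog1 sort, with 0 of 18 cells with Ncam2 (0 to 18.5%) against 11 of 30 without (19.9 to 56.1%). In the engrafted sort the counts were 0 of 11 (0 to 28.5%) against 4 of 18 (6.41 to 47.6%), with overlapping intervals. Nqo1 was found in 5 of 16 cells with Ncam2 against 9 of 26 without in OMP cells at 14 days, in 4 of 20 against 6 of 26 in uninjured and in 2 of 12 against 5 of 13 in 14-day Neurog1 cells. Acsm4 was found in 0 of 11 engrafted cells with Ncam2 and 5 of 18 without, and in 7 of 16 and 10 of 26 OMP cells at 14 days. In the Neurog1 sorts it was found in 1 of 20 with and 6 of 26 without Ncam2 in uninjured, 0 of 18 and 9 of 30 in 5-day and 0 of 12 and 1 of 13 in 14-day cells. Median depth was 840403 fragments in the 77 sorted cells with Ncam2 and 1039888 fragments in those without it. At a limit of 50 CPM for both genes, Nqo1 was found in 7 of 67 sorted cells with Ncam2 (10.4%) and 28.5% of those without. In the reference Nqo1 was found in 19 of 22 cells with Ncam2 and in 78.4% of those without, and in 63 of the 75 cells of the sustentacular-marker clusters.

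**Figure D2:**
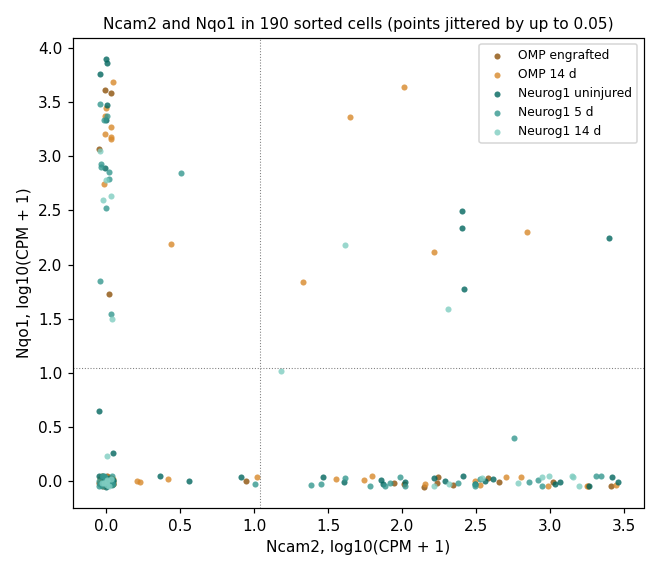
Each point is 1 of 190 sorted cells, with Ncam2 on the x axis and Nqo1 on the y axis, both as log10(CPM + 1), and dotted lines at 10 CPM. Most cells lie along an axis: 66 held Ncam2 alone, 35 Nqo1 alone, 11 both and 78 neither. If the 2 genes were found independently over the pooled cells, 18.6 would hold both. Observed and independent counts were 0 and 1.5 in the engrafted and 5 and 5.3 in the 14-day OMP sort. They were 4 and 4.3 in the uninjured, 0 and 4.1 in the 5-day and 2 and 3.4 in the 14-day Neurog1 sort.

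The Kirrel genes were present in more cells of the OMP sorts and the reference than of the Neurog1 sorts. At least 1 of Kirrel, Kirrel2 and Kirrel3 was found in 16 of 29 engrafted OMP cells (55.2%, 35.7 to 73.6%), 29 of 42 OMP cells at 14 days (69%, 52.9 to 82.4%), 11 of 46 uninjured (23.9%, 12.6 to 38.8%), 1 of 48 5-day (2.08%, 0.0527 to 11.1%) and 2 of 25 14-day Neurog1 cells (8%, 0.984 to 26%), and 84 reference cells (60.9%, 52.2 to 69.1%). Median depth was highest in OMP cells at 14 days, which had the highest share, and it was higher in each Neurog1 sort than in the engrafted sort and the reference. Within the Neurog1 sorts at least 1 Kirrel gene was found in 11 of 52 cells with Omp and in 3 of 67 cells without Omp, and 9 of the 11 were uninjured. By sort the counts were 9 of 27 with and 2 of 19 without Omp in uninjured, 1 of 17 and 0 of 31 in 5-day and 1 of 8 and 1 of 17 in 14-day Neurog1 cells. The mature neuron markers were also higher in the OMP sorts and the reference than in the Neurog1 sorts. Their summed CPM had a median of 15674 in the engrafted sort, 15823 in OMP cells at 14 days, and 1640, 1828 and 1385 in the 3 Neurog1 sorts, with 7947 in the reference. The finer order of the medians differed. Among the Neurog1 sorts the 5-day sort had the highest marker median and the lowest Kirrel share. By mean, the uninjured sort had the highest marker sum, and it also had the highest Kirrel share. The mean sums were 5884 CPM in the uninjured, 2165 CPM in the 5-day and 1989 CPM in the 14-day sort. In the uninjured sort 2 cells held 30.1% of the total. The reference, which mixes cell classes, had a lower marker median than the engrafted sort but a higher Kirrel share. Its mature-like cells had a marker median of 39426 CPM and held a Kirrel gene in 29 of 38 cells (76.3%). Its sustentacular-marker clusters had a marker median of 4614 CPM and held a Kirrel gene in 38 of 75 cells (50.7%). The part of depth and of these markers in the result was not tested.

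Kirrel2 was the Kirrel gene with the highest mean FPKM in every group except the 5-day and 14-day Neurog1 sorts. It was found in 11 of 29 engrafted cells at a mean of 125.04 CPM and a highest value of 1385 CPM. In OMP cells at 14 days it was found in 18 of 42 cells, with a mean of 207.5 and a highest value of 2470 CPM. In the Neurog1 sorts it was found in 7 of 46 uninjured cells (mean 54.6, highest 1314 CPM), in 0 of 48 cells at 5 days (mean 0.216, highest 8.82 CPM) and in 1 of 25 cells at 14 days (mean 24.3, highest 598 CPM). In the reference it was found in 74 cells (53.6%, 44.9 to 62.1%), with a mean of 370.9 and a highest value of 10670 CPM. The median was 0.916 CPM in OMP cells at 14 days, 20.2 CPM in the reference and 0 CPM in the other 4 groups, so all groups overlapped at 0. The 0 of 48 at 5 days allows a share of up to 6.25%, taking a count of 0 to allow 3 cells. The exact interval of the 5-day sort, which has another upper end, lay below those of both OMP sorts and the reference.

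The log2 ratio of Kirrel2 in the 5-day over the uninjured Neurog1 sort was -5.51, but without the filter on genes it was -0.45. The intervals of the shares overlapped, at 0 to 7.4% in the 5-day and 6.34 to 28.9% in the uninjured sort. Within the reference Kirrel2 was found in 26 of 38 mature-like cells at a mean of 717 CPM, against 33 of 75 cells of the sustentacular-marker clusters at a mean of 167.5 CPM. The second level was 23.4% of the first, beside 17.9% for Adcy3, the olfactory adenylyl cyclase gene. Compared with the mature-like cells, OMP cells at 14 days had a log2 ratio of -1.78, and its range over the alternatives was -3.03 to -1.26. After thinning, Kirrel2 was found in 42.9% of the OMP cells and 68.4% of the mature-like cells.

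Kirrel2 had 1 of the 2 promoters among the members with the letters CCCNNGGG, the core of the sites known for Ebf factors, which are expressed in olfactory neurons. RefSeq windows of 300 bases (GRCm38.p6, 250 before to 50 after the gene start) were at hand for 8 of the 10 members, and Ncam1 and Kirrel3 were not matched. The motif reads the same on both strands, and 13.7% of 32851 windows hold it. The windows of Kirrel2 and Chl1 are shown in part, because 1 belongs to the most often found Kirrel gene and 1 to the least found member, with the motif in capitals:
Kirrel2, chr7:30457479-30457508, minus strand, motif starting 19 bases after the gene start: cgacccgcaggCCCACGGGagcctgagctc
Chl1, chr6:103510775-103510804, plus strand, motif starting 90 bases before the gene start: ctgcctcttgtCCCAAGGGagtgtgtgtaa
The Kirrel2 window holds a second match that starts 43 bases after the gene start. A match describes these letters only, and it occurred in a member with a high and in one with a very low level.

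Kirrel, also known as Neph1, had its highest share in OMP cells at 14 days. It was found in 4 of 29 engrafted cells (13.8%, 3.89 to 31.7%) and in 18 of 42 OMP cells at 14 days (42.9%, 27.7 to 59%). It was found in 4 of 46 uninjured, 1 of 48 5-day and 0 of 25 14-day Neurog1 cells, where the last allows up to 12%. In the reference it was found in 23 cells (16.7%, 10.9 to 24%). The interval of OMP cells at 14 days lay above those of the 3 Neurog1 sorts and of the reference, and overlapped that of the engrafted sort. Highest values were 203.9 CPM in engrafted cells, 1408 CPM in OMP cells at 14 days, 598, 60.3 and 0 CPM in the 3 Neurog1 sorts and 3949 CPM in the reference. That reference cell alone held 60.7% of the summed CPM of Kirrel in the reference. The log2 ratio of the engrafted over the 14-day OMP sort was -2.69, and no ratio is given against the 14-day Neurog1 sort, where Kirrel is listed at 0.

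Kirrel3 was found in 8 of 29 engrafted cells (27.6%, 12.7 to 47.2%), 10 of 42 OMP cells at 14 days (23.8%, 12.1 to 39.5%), 4 of 46, 1 of 48 and 1 of 25 Neurog1 cells uninjured, at 5 days and at 14 days, and 27 reference cells (19.6%, 13.3 to 27.2%). Its means were 93.5 CPM in engrafted cells, 40.3 CPM in OMP cells at 14 days, 17.8, 0.429 and 31.1 CPM in the Neurog1 sorts, and 90.7 CPM in the reference. The mean of the 14-day Neurog1 sort came from 1 cell at 776 CPM. The interval of the 5-day sort (0.0527 to 11.1%) lay below those of both OMP sorts and the reference.

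**Figure D3:**
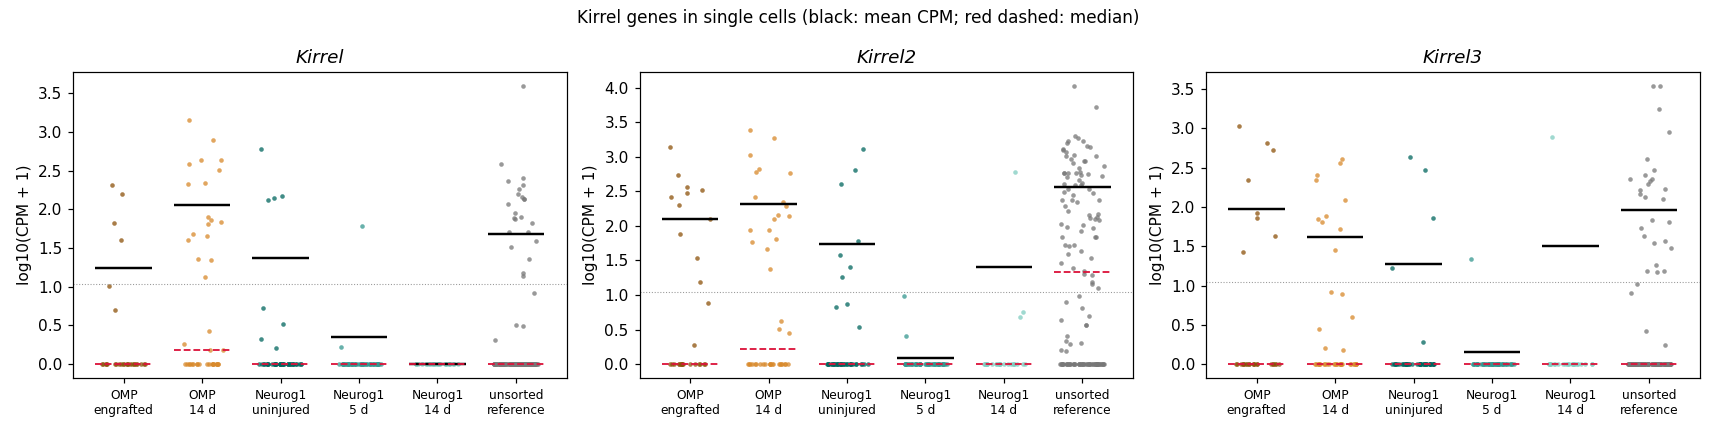
Each point is 1 cell and the y axis is log10(CPM + 1), with the groups ordered as OMP engrafted, OMP 14 days, the 3 Neurog1 sorts by time and the unsorted reference. The 5-day and 14-day Neurog1 columns hold 2 points each above the dotted line at 10 CPM over the 3 panels, while the reference column of Kirrel2 holds 74.

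The Kirrel genes were found both apart and together within a cell. In the engrafted sort 3 cells held Kirrel2 and Kirrel3, 8 held Kirrel2 without Kirrel3, 5 held Kirrel3 without Kirrel2 and 13 neither. In OMP cells at 14 days the same counts were 3, 15, 7 and 17, and in the mature-like reference cells 4, 22, 1 and 11. Kirrel and Kirrel2 were found together in 2 engrafted cells and in 11 OMP cells at 14 days. All 3 genes were found in 0 engrafted cells, 3 OMP cells at 14 days, 1 uninjured Neurog1 cell and 10 reference cells, of which 9 were the libraries with more than 10000 genes, and in 0 of the 38 mature-like cells. By stage, Kirrel2 was found in 3 of 8 engrafted cells with Gap43 and Omp and in 7 of 14 with Omp alone, and in 15 of 36 and 3 of 5 OMP cells at 14 days. The same counts were 0 of 8 and 4 of 14 in engrafted cells and 14 of 36 and 4 of 5 in OMP cells at 14 days for Kirrel, and 2 of 8 and 6 of 14 in engrafted cells and 10 of 36 and 0 of 5 in OMP cells at 14 days for Kirrel3.

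Cntn1 encodes a contactin that partners with Nfasc and L1-type molecules on axons. It was found in 3 of 29 engrafted cells (10.3%, 2.19 to 27.4%), 12 of 42 OMP cells at 14 days (28.6%, 15.7 to 44.6%), 8 of 46 uninjured (17.4%, 7.82 to 31.4%), 6 of 48 5-day (12.5%, 4.73 to 25.2%) and 2 of 25 14-day Neurog1 cells (8%, 0.984 to 26%), and 7 reference cells (5.07%, 2.06 to 10.2%). The highest values were 792 CPM in engrafted cells, 1737 CPM in OMP cells at 14 days, 2647, 2708 and 660 CPM in the Neurog1 sorts and 425.5 CPM in the reference, and the median was 0 in each group. Of the 7 reference cells, 6 were libraries with more than 10000 genes. The interval of OMP cells at 14 days lay above that of the reference. In the mature-like reference cells it was found in 0 of 38, which allows up to 7.89%, and it is listed there at 0, so no ratio is given. By Gap43, Cntn1 was found in 3 of 12 engrafted cells with Gap43 and in 0 of 17 without it, which allows up to 17.6%. In OMP cells at 14 days it was found in 12 of 37 with Gap43 and in 0 of 5 without, which allows up to 60%. Of the 17 engrafted cells without Gap43, 4 were the cells without Ncam1. In the Neurog1 sorts Cntn1 was found in 7 of 77 cells with Gap43 and 9 of 42 without.

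L1cam, the founding member of its family, was found in 5 of 29 engrafted cells (17.2%, 5.85 to 35.8%), 16 of 42 OMP cells at 14 days (38.1%, 23.6 to 54.4%), 13 of 46 uninjured, 14 of 48 5-day and 7 of 25 14-day Neurog1 cells (28.3, 29.2 and 28%), and 31 reference cells (22.5%, 15.8 to 30.3%). All 6 intervals overlapped. Its means were 14.9 CPM in engrafted cells, 66.2 CPM in OMP cells at 14 days, 118.1, 25.4 and 22.8 CPM in the Neurog1 sorts and 37.2 CPM in the reference. In the uninjured Neurog1 sort 1 cell at 3442 CPM held 63.4% of the sum. The log2 ratios of the 5-day and 14-day sorts over the uninjured one, -2.17 and -2.32, therefore stood beside equal shares of cells. L1cam was found in 11 of 27 uninjured Neurog1 cells with Omp and 2 of 19 without, in 5 of 8 and 2 of 17 14-day cells, and in 5 of 17 and 9 of 31 5-day cells, where the shares were 29.4% and 29%. The genes most like it in rank were Kif1a (rho 0.36), Scn3a (0.36), Tmem151b (0.33), Scn3b (0.32) and Vwa3a (0.29) over the same 190 cells.

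Nfasc, or neurofascin, was found in 5 of 29 engrafted cells, 11 of 42 OMP cells at 14 days, 13 of 46, 12 of 48 and 4 of 25 Neurog1 cells uninjured, at 5 days and at 14 days, and 18 reference cells (13%), with overlapping intervals throughout. Its means were 64.6 CPM in engrafted cells, 17.3 CPM in OMP cells at 14 days, 108.4, 48.7 and 49.9 CPM in the Neurog1 sorts and 8.87 CPM in the reference. Single cells set several of them: 1 engrafted cell at 1571 CPM held 83.9% of the sum, 1 uninjured Neurog1 cell at 3513 CPM held 70.4% and 1 cell of the 14-day sort at 1037 CPM held 83.1%. The log2 ratio of the engrafted over the 14-day OMP sort was 1.84, and -0.20 without the highest cell of each group. The genes most like Nfasc were Carhsp1 (rho 0.26), Atp2a2 (0.26), Gdap1l1 (0.25), Insm1 (0.25) and Ddit3 (0.25).

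Dscam was found in 5 of 29 engrafted cells, 9 of 42 OMP cells at 14 days, 7 of 46, 8 of 48 and 5 of 25 Neurog1 cells uninjured, at 5 days and at 14 days, and 32 reference cells (23.2%), and all intervals overlapped. Its means of 46.1 CPM in engrafted cells, 134.3 CPM in OMP cells at 14 days, 25.5, 28 and 65.3 CPM in the Neurog1 sorts and 72.4 CPM in the reference also rested on few cells. The highest OMP cell at 14 days, at 4240 CPM, held 75.2% of the sum of its group. Chl1, the close homologue of L1cam, was found in 0 of 29 engrafted cells, 0 of 42 OMP cells at 14 days, 1 of 46, 1 of 48 and 0 of 25 Neurog1 cells uninjured, at 5 days and at 14 days, and 5 reference cells (3.62%). Its highest value was 117.8 CPM, in 1 uninjured Neurog1 cell. The counts of 0 allow up to 10.3%, 7.14% and 12% in the engrafted sort, in OMP cells at 14 days and in the 14-day Neurog1 sort.

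**Figure D4:**
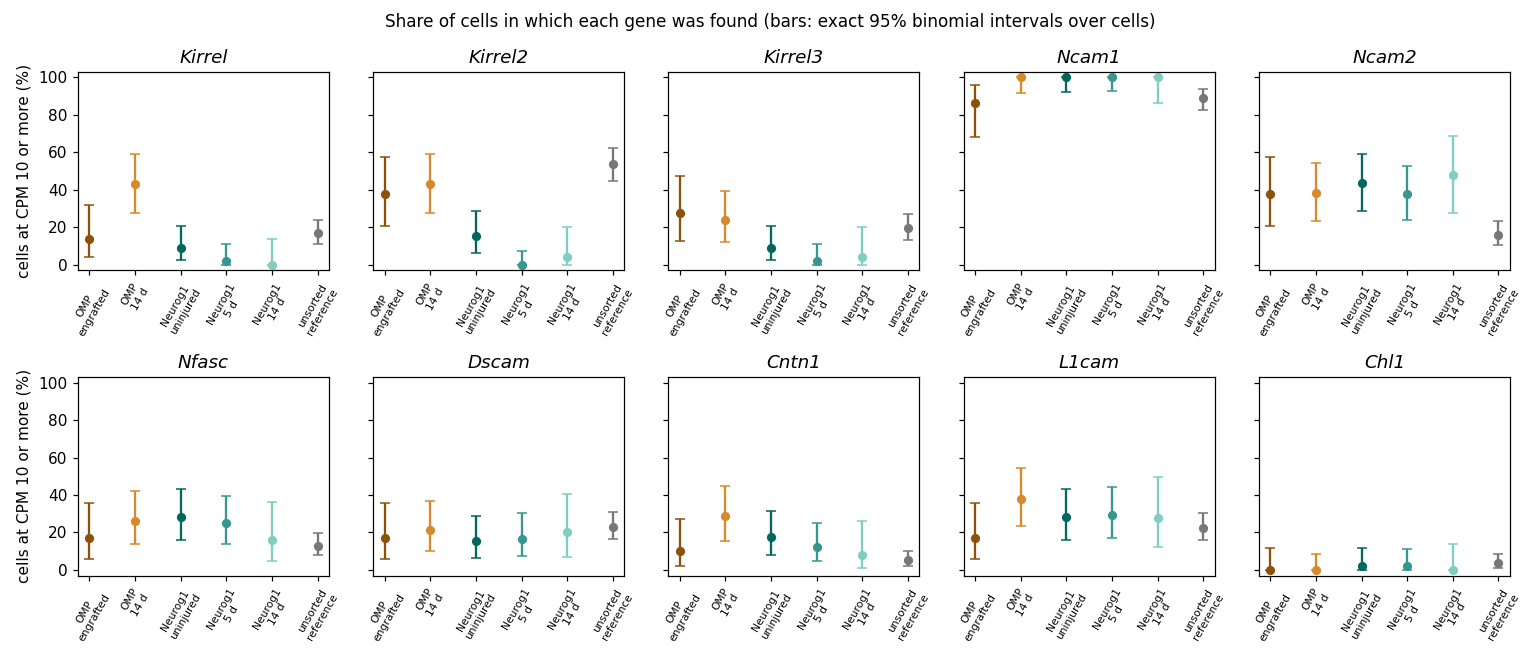
Each panel is 1 of the 10 genes and the y axis is the share of cells at 10 CPM or more, with exact 95% binomial intervals over cells as bars. Groups run from OMP engrafted on the left to the unsorted reference on the right. Ncam1 sits at or near 100%, Ncam2 near 40% in the sorted groups, the Kirrel genes are lowest in the 5-day and 14-day Neurog1 sorts, and Chl1 is near 0.

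Over the whole set, members were counted as higher or lower at a ratio of at least 2 in mean CPM + 1 where either mean reached 5 CPM, beside the share of all genes that passed the same limit. Chl1 missed the 5 CPM limit in each comparison, and Kirrel in the 14-day over the 5-day sort. Medians for the members are over all 10, these included. Medians over all genes cover only genes that passed the limit, so the 2 medians are not taken in the same way. A call against a group listed at 0, as for Kirrel in the 14-day Neurog1 sort and Cntn1 in the mature-like cells, gives a direction and no size. In the uninjured Neurog1 sort over the reference, 9 of 10 members passed, of which 5 were higher (Ncam1, Ncam2, Nfasc, Cntn1 and L1cam, against 22.4% of all genes higher) and 4 lower (the 3 Kirrel genes and Dscam, against 32.6% lower). The median log2 ratio was 0.89 over the members and -0.16 over all genes tested. In the 5-day over the uninjured sort 9 passed, with 0 higher and 5 lower (the 3 Kirrel genes, Nfasc and L1cam), beside 20.9% higher and 26.3% lower over all genes, and medians of -1.31 for the members and -0.13 for all. In the 14-day over the uninjured sort 9 passed, with 1 higher (Dscam) and 5 lower (Kirrel, Kirrel2, Nfasc, Cntn1 and L1cam), beside 22% and 29.9%, and medians of -1.12 and -0.17. In the 14-day over the 5-day sort 8 passed, with 3 higher (Kirrel2, Kirrel3 and Dscam, the Kirrel genes each through 1 cell) and 1 lower (Cntn1), beside 23.8% and 27.1%, and medians of -0.04 and -0.03.

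In the OMP comparisons 9 members passed each time, and the medians of the members are again over all 10. In engrafted cells over OMP cells at 14 days 2 were higher (Kirrel3 and Nfasc) and 4 lower (Kirrel, Dscam, Cntn1 and L1cam), beside 21.7% and 35% of all genes, and the medians were -0.55 and -0.34. In OMP cells over Neurog1 cells, both at 14 days, 5 were higher (Kirrel, Kirrel2, Dscam, Cntn1 and L1cam) and 1 lower (Nfasc), beside 32.4% and 28.6%, and the medians were 0.70 and 0.04. In OMP cells at 14 days over the mature-like reference cells 3 were higher (Ncam2, Dscam and Cntn1) and 2 lower (Kirrel2 and Kirrel3), beside 37.1% and 25%, and the medians were 0.21 and 0.31. Kirrel3, lower by mean, was found in 23.8% of these OMP cells and in 13.2% of the mature-like cells. Its mean in the mature-like cells was 139.6 CPM, with an SD of 626 CPM. Comparisons that share a sort share its cells. The share of all genes with intervals apart was not computed, so the counts of intervals apart that follow have no background. The intervals of the shares were apart for 2 members in the uninjured Neurog1 sort over the reference (Kirrel2 and Ncam2), for 2 in OMP over Neurog1 cells at 14 days (Kirrel and Kirrel2), for 1 in OMP cells over mature-like reference cells (Cntn1), and for 0 in the other 4.

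**Figure D5:**
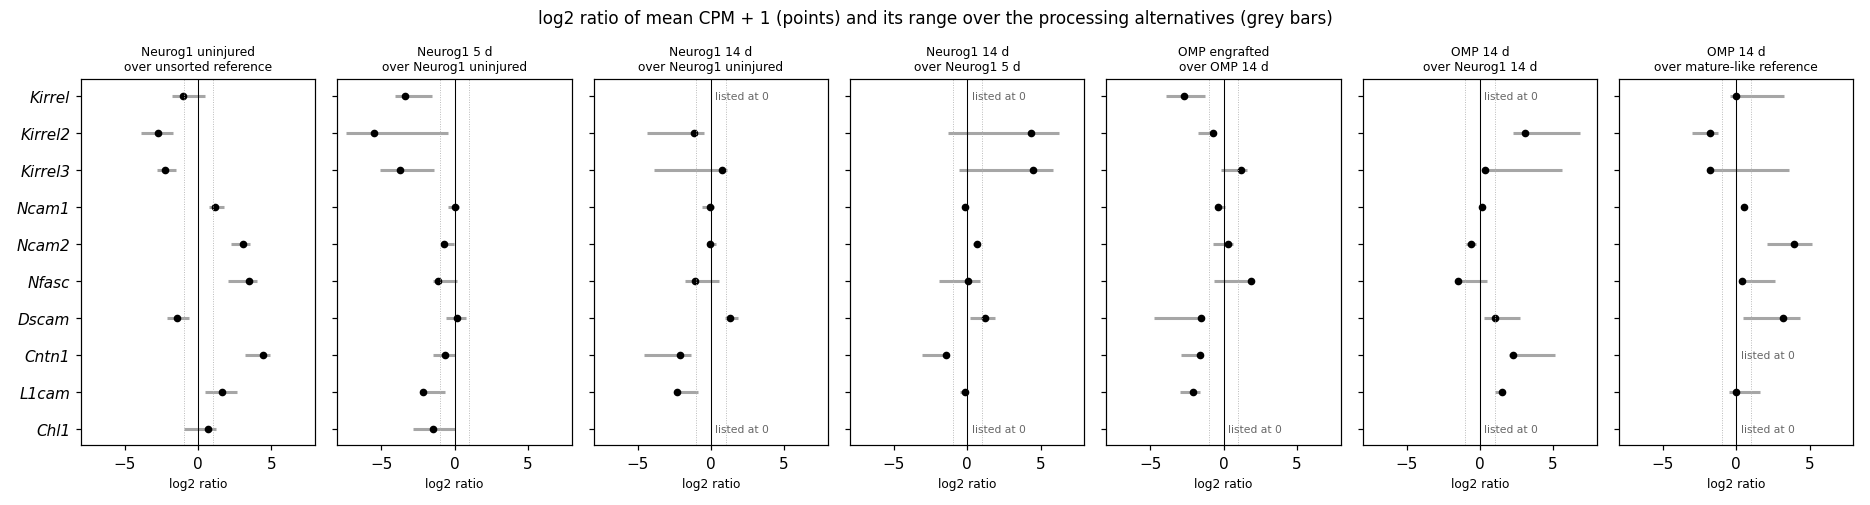
Each panel is 1 comparison, with the first-named group on top of the ratio. Points are log2 ratios of mean CPM + 1 and grey bars their range over the alternatives, and dotted lines mark a ratio of 2 in either direction. Ncam1 stays near 0 within the sorts, while bars of the Kirrel genes, Nfasc and Dscam are wide, and a gene listed at 0 in either group has no point.

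The relatives of the 10 genes were read from 31 further adhesion genes, 22 partners and modifiers and 10 genes of olfactory axon sorting. Shares in brackets are those of all genes tested, higher and then lower. Of the 31 adhesion genes 21 passed in the uninjured Neurog1 sort over the reference, with 8 higher and 3 lower (22.4% and 32.6%). In the 5-day over the uninjured sort 2 of 21 were higher and 10 lower (20.9% and 26.3%). Among those lower was the teneurin Tenm2, at 153.2 CPM in the 5-day against 400 CPM in the uninjured sort. Tenm2 was found in 45.8% and 47.8% of these cells. In the 14-day over the uninjured sort 5 of 21 were higher and 5 lower (22% and 29.9%), and in the 14-day over the 5-day sort 9 of 20 were higher and 5 lower (23.8% and 27.1%). In engrafted over 14-day OMP cells 2 of 18 were higher and 9 lower (21.7% and 35%). In OMP over Neurog1 cells at 14 days 8 of 22 were higher and 7 lower (32.4% and 28.6%), and in OMP cells at 14 days over the mature-like cells 8 of 17 were higher and 1 lower (37.1% and 25%). The median log2 ratios of the list, in this order, were 0.24, -0.52, -0.25, 0.40, -0.92, 0.37 and 0.95, beside -0.16, -0.13, -0.17, -0.03, -0.34, 0.04 and 0.31 over all genes tested. Cntn4 (BIG-2), a contactin with a known role in olfactory axon sorting, had the highest mean CPM of this list in each group, at 2642 CPM in engrafted cells, 3979 CPM in OMP cells at 14 days, 1305, 2293 and 891 CPM in the Neurog1 sorts and 1564 CPM in the reference. Cadm1, a synaptic adhesion gene, had 369.1 CPM in engrafted against 934 CPM in 14-day OMP cells. Nptn, or neuroplastin, had 73 CPM in the 14-day against 475 CPM in the uninjured Neurog1 sort. Pvrl3, a nectin gene, had 364.4 CPM in engrafted cells, 209.4 CPM in OMP cells at 14 days and 10.4 CPM in the mature-like reference cells. It was found in 13.8%, 16.7% and 7.89% of these cells. In the whole reference Pvrl3 had 172.2 CPM and was found in 32.6% of cells. In the sustentacular-marker clusters it had 282.03 CPM and was found in 40% of cells, the highest share of these sets. The part of libraries with sustentacular markers in its OMP means was not tested.

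Among the 22 partners and modifiers, 3 of 19 were higher and 8 lower in the uninjured Neurog1 sort over the reference (22.4% and 32.6% over all genes). St8sia2, which adds polysialic acid to Ncam1, was among those higher and is named after its values were seen, at 35.7 CPM in the uninjured sort against 2.6 CPM in the reference, and found in 8.7% and 7.25% of the cells. It had 4.33 CPM in engrafted cells and 40.3 CPM in OMP cells at 14 days, against 0.44 CPM in the mature-like cells, and was found in 3.45%, 11.9% and 2.63% of these cells. St8sia4, the other polysialyltransferase gene of the list, stood the other way round in the OMP sorts, at 5.73 CPM in engrafted cells, from 1 cell in 29 (3.45%), against 0.0158 CPM in OMP cells at 14 days. The log2 ratios of Ncam1 in the same 3 comparisons were 1.15 in the uninjured Neurog1 sort over the reference, -0.38 in engrafted over 14-day OMP cells and 0.50 in OMP cells at 14 days over the mature-like cells. In the 5-day over the uninjured sort 1 of 16 was higher and 2 lower (20.9% and 26.3%), in the 14-day over the uninjured sort 5 and 3 of 18 (22% and 29.9%), and in the 14-day over the 5-day sort 3 and 3 of 18 (23.8% and 27.1%). In engrafted over 14-day OMP cells 7 of 19 were higher and 3 lower (21.7% and 35%), in OMP over Neurog1 cells at 14 days 4 and 6 of 18 (32.4% and 28.6%), and in OMP cells at 14 days over the mature-like cells 4 and 4 of 16 (37.1% and 25%). The median log2 ratios of the list in the 7 comparisons were -0.73, 0.03, -0.14, 0.37, 0.81, 0.12 and 0.18. Pak1, a kinase that acts downstream of Dscam, had 3.6 CPM in engrafted cells against 410 CPM in OMP cells at 14 days. It was found in 10.3% and 26.2% of these cells. Fyn, a kinase that signals from Ncam1, had 131.2 CPM in the uninjured Neurog1 sort against 23 CPM in the reference.

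Of the 10 axon-sorting genes, all 10 passed in the uninjured Neurog1 sort over the reference, with 4 higher (Nrp1, Nrp2, Sema3a and Robo2, guidance receptors and a ligand) and 2 lower (Epha5 and Acsm4), beside 22.4% and 32.6% of all genes. Nrp1 had 472 CPM in the uninjured sort against 131.4 CPM in the reference. In the 5-day over the uninjured sort 0 of 9 were higher and 3 lower (20.9% and 26.3%), in the 14-day over the uninjured sort 0 and 3 of 9 (22% and 29.9%), and in the 14-day over the 5-day sort 1 and 2 of 8 (23.8% and 27.1%). In engrafted over 14-day OMP cells 2 of 10 were higher and 1 lower (21.7% and 35%), in OMP over Neurog1 cells at 14 days 4 and 3 of 10 (32.4% and 28.6%), and in OMP cells at 14 days over the mature-like cells 2 and 4 of 10 (37.1% and 25%). The median log2 ratios of the list in the 7 comparisons were 0.65, -0.40, -0.90, -0.29, -0.01, -0.67 and -0.82. Epha5, an ephrin receptor gene whose ligand gene Efna5 was broadly present, was likewise lowest in the Neurog1 sorts: 44.2 CPM in engrafted cells, 40.7 CPM in OMP cells at 14 days, 1.42, 0 and 0 CPM in the Neurog1 sorts and 85.8 CPM in the reference.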

How the data were processed

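The authors deposited 1 table of signal, estimated fragments per gene scaled to nearly equal totals per cell, and 1 table of FPKM, each with 1 column per library. The build was mm9 and the tools Cuffnorm, Cufflinks 2.2.1, STAR 2.5.2a and FastQC, per the submitters' processing notes; the roles of the tools and the annotation are not given in the sources used here. Because 99.9% of nonzero signal values were not whole, no count model was used. Of 23308 gene rows, 27 that spreadsheets had turned into dates (0.418% of the signal) were left out. Signal was divided by its column sum to give CPM (Python 3.11.15, pandas 2.3.3). Fragments per cell were recovered from a step, the value of 1 fragment. Candidate steps were the most frequent values of a cell and simple fractions of them. The largest with a near-best share of whole multiples was taken (a median of 95.9% of values whole within 0.02). The step was tested on simulated data made of whole multiples only, where 40 of 41 steps were recovered.

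Libraries with 1000 genes and a sum of 50000 were kept (328 in all), and only the limit on genes left any out. Log2 ratios are of mean CPM + 1. Cells were clustered on 2000 variable genes without the 10 members, with 20 principal components, Ward linkage and 12 clusters, named from fixed markers. No doublet caller was run. Intervals are exact (Clopper-Pearson, 95%), and a count of 0 was taken to allow 3 cells; reads carry no molecular identifiers, so both cover counting error only. No test was run, since no animal is named. The members and lists were chosen with earlier results of these data known. All 10 members are named; other genes of the lists are named at a ratio of 2 or more with 50 CPM in either group, except St8sia2 and St8sia4, chosen after their values were seen, and for members found in 20% or more of the sorted cells the 5 genes of highest Spearman correlation. Alternatives changed the filter, pseudocount, scaling, detection limit, depth, single highest cells, runs and clusters.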

Additional observations from a re-analysis of the deposited data

Results flagged for a closer look

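The 60 engrafted, 8 14-day OMP, 15 uninjured, 3 5-day and 1 14-day Neurog1 and 54 reference libraries left out by the filter on genes were not used in the comparisons, and a count of 0 among them would allow a share of 2.13%. Ncam1 was found in 53.2% of these libraries, Ncam2 in 6.38%, Kirrel2 in 5.67% and L1cam in 4.26%, each above that limit. Their median depth was 62411 fragments. The other 6 members were found in 0 to 3 of these libraries.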

How the results depend on the processing

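Called log2 ratios changed sign in 13 pairings of a ratio with an alternative, and some ratios did so under more than 1 alternative. Ncam1 kept within 1 unit of log2 in each comparison among sorts. Sign changes: Kirrel in the uninjured Neurog1 sort over the reference was 0.11 in cells with 2000 or more genes and 0.49 with run 2 alone. Nfasc was 0.17 in the 5-day over the uninjured sort without the highest cells, 0.54 in the 14-day over the uninjured sort with 2000 genes, and 0.47 in OMP over Neurog1 cells at 14 days without the highest cells. Nfasc in engrafted over 14-day OMP cells was -0.21 with 2000 genes, -0.62 with pooled fragments and -0.20 without the highest cells, and Kirrel3 was -0.15 with no filter. In the 14-day over the 5-day sort Kirrel2 was -1.32 with no filter and Kirrel3 -0.58 with 2000 genes. Over the mature-like cells Kirrel3 was 3.59 with 2000 genes and 0.67 with cells chosen by 4 markers.

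Counts of members moved as follows. The share of all genes called under each alternative was not computed, so these counts have no background. With 2000 genes, 2 were lower in the uninjured Neurog1 sort over the reference, 3 in the 5-day and 3 in the 14-day over the uninjured sort; 1 was higher in engrafted over 14-day OMP cells, and 6 higher and 1 lower in 14-day OMP over mature-like cells. With no filter, 3 were lower in the 5-day and 2 higher in the 14-day over the uninjured sort, 2 lower in the 14-day over the 5-day sort and 0 higher in engrafted over 14-day OMP cells. Without the highest cells, 0 were higher in the 14-day over the uninjured sort, 0 higher and 2 lower in the 14-day over the 5-day sort, 0 higher in engrafted over 14-day OMP cells, 0 lower in OMP over Neurog1 cells at 14 days and 1 lower over the mature-like cells. With pooled fragments, 1 was higher in engrafted over 14-day OMP cells and 0 lower in OMP over Neurog1 cells. A pseudocount of 10 gave 3 lower in the 14-day over the uninjured sort. Over the mature-like cells, size factors gave 5 higher, run 2 alone 6, and cells chosen by 4 markers 5 higher and 1 lower. The causes were not tested.

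Size factors shifted the median of all genes by -0.36 in the uninjured Neurog1 sort over the reference, by 0.22 in the 5-day and in the 14-day over the uninjured sort, and by 0.13 over the mature-like cells. Leaving out the 9 libraries with over 10000 genes, which could change only the 10 ratios of the uninjured Neurog1 sort over the reference, moved none of these by 1.5-fold, but Kirrel at -0.81 was no longer 2-fold lower. It left Cntn1 in 1 of 7 and Ncam2 in 13 of 22 reference cells that held them. The mature-like set held 67 cells at 8 clusters, 38 at 16, with the same ratios, and 18 by 4 markers. No paired analysis was possible because no animal is named. Thinning to 50000 fragments moved the share of Cntn1 to 18.8% in 5-day, 10.9% in uninjured and 4% in 14-day Neurog1 cells, beside 12.5%, 17.4% and 8% unthinned.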
